A study of Sus scrofa with 4 samples.

Results

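Cytokines, chemokines, their receptors and the innate immune signalling genes were described in maps of histone H4 lysine 12 lactylation (H4K12la) from sow liver. Members were all RefSeq coding genes of the pig build Sscrofa11.1 whose symbols name an interleukin or its receptor, a chemokine or its receptor, a TNF superfamily ligand or receptor, a Toll-like receptor, MYD88, a TRAF, an NF-kappaB subunit or inhibitor, an IRF, a JAK, a STAT or a SOCS. The rule gave 194 genes. TRAF2 and TRAF3 have no chromosome in the gene table used and were not analysed here, so 192 of the 16303 named coding genes on chromosomes were described. The rule uses symbols and no measured value.

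Livers of late-gestation sows with a high bile acid level were compared with livers of sows labelled low or normal. Each group has 1 library immunoprecipitated with an anti-H4K12la antibody and 1 input library, 4 samples in all. The labels give liver as the tissue, hepatocytes as the cell type and female as the sex. Age, breed, the bile acid levels and the number of animals behind each library are not given in the sources used here. Because each group has 1 immunoprecipitated library, no test between groups was possible. Every difference between the lists below is a description of 2 libraries without a replicate check. In a bulk sample, a mark on more cells and more of the mark per cell cannot be told apart.

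Cytokines and chemokines are secreted signals that bind receptors on the cell surface. Many, but not all, interleukin receptors pass the signal through JAK kinases to STAT transcription factors, with SOCS proteins as feedback inhibitors. Most Toll-like receptors act on NF-kappaB through the adaptor MYD88 and TRAF proteins, and many TNF receptors do so through TRAF proteins. NF-kappaB is held in the cytoplasm by the NFKBI proteins. Toll-like receptors also act on interferon regulatory factors. In liver, Kupffer cells are a known source of cytokines, and hepatocytes answer IL-6 through STAT3 with acute phase proteins. Histone lactylation is an acyl mark that derives from lactate.

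The deposited lists held 28283 peaks in the high and 5735 in the low bile acid library, a difference in list length that touches every count below. The authors' fold gives the enrichment at a peak's summit over its local background. Their q is the p-value adjusted for all positions tested. Fragment numbers recovered from the lists had a median of 9 at a summit in the high and 10 in the low list, against medians of 2.27 and 2.38 expected. At q under 0.05, 608 high-list peaks (2.15%) and 13 low-list peaks (0.227%) remained. Of 10 hepatocyte markers, 1 (TTR, fold 2.21) had a high-list peak at a gene end. None of 10 Kupffer and myeloid markers and none of 5 neutrophil markers had one there. Of 10 lymphocyte markers 3 did (CD3D and CD3G on a shared peak, and CD79B), and of 6 endothelial markers 1 did (CDH5). In the low list the only marker with a gene-end peak was AIF1 of the myeloid list. With 10 kb added, the high list had a peak at 7 of 10 hepatocyte, 4 of 10 myeloid, 5 of 10 lymphocyte, 1 of 5 neutrophil and 5 of 6 endothelial markers, and the low list at 1, 2, 2, 3 and 1 of them. Over all named coding genes the shares were 18.4% (high) and 3.59% (low) at gene ends, and 62.8% and 22% with 10 kb added. Albumin (ALB) had no peak of either list within 10 kb. The part that cell composition has in the results was not tested.

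The first question was how many of the immune genes carried the mark at a gene end. A gene-end peak overlaps the 1 kb on either side of either annotated end of a gene, and 1 of those ends holds the start site. In the high list 38 of 192 members (19.8%; exact 95% interval 14.4 to 26.1%) had a gene-end peak, and 18.4% of all named coding genes did. In the low list 7 members (3.65%; 1.48 to 7.37%) had one, against 3.59% of all coding genes. Both shares lie at the background of their list. By class, 35 members were marked there in the high list only (18.2%; background 17.6%). There were 4 in the low list only (2.08%; background 2.71%), and 3 in both (1.56%; background 0.883%). The remaining 150 members (78.1%) had none in either list. With the high list shortened to its 5735 peaks of smallest p, the length of the low list, 8 members were marked in it (4.17%; coding genes 5.21%), beside 7 in the low list.

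Over the whole annotated gene span, 69 members (35.9%; 29.2 to 43.2%) had a high-list peak against 45.4% of coding genes. In the low list 15 (7.81%; 4.44 to 12.6%) did so against 15.1%. By class 61 were in the high list only (background 34.7%), 7 in the low list only (4.5%) and 8 in both (10.6%). With 10 kb added on either side, 108 members (56.3%; 48.9 to 63.4%) had a high-list peak (background 62.8%) and 28 (14.6%; 9.91 to 20.4%) a low-list peak (background 22%). Of these, 90 were in the high list only (background 46.2%), 10 in the low list only (5.42%) and 18 in both (16.6%), and 74 had no peak in either list. With the high list shortened to the length of the low list, 26 members (13.5%) had a peak within 10 kb in it, against 24.1% of coding genes, fewer than the 28 of the low list.

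The immune genes are short, with a median length of 14.0 kb against 25.6 kb for all named coding genes. Within classes of gene length the shares over the gene span lay close to those of coding genes in the high list. They were 16.3% of members and 16.5% of coding genes under 5 kb, 29.9 and 31.98% from 5 to 20 kb, 46.9 and 47.5% from 20 to 60 kb, and 66.7 and 71.0% over 60 kb. The low-list shares over the gene span were 4.08% (coding genes 2.11%), 5.97% (6.45%), 8.16% (12.8%) and 18.5% (33.0%) in the same classes. In each class and list the share of coding genes lay inside the members' exact interval, at the widest gap 33.0% inside 6.30 to 38.1%.

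**Figure D1:**
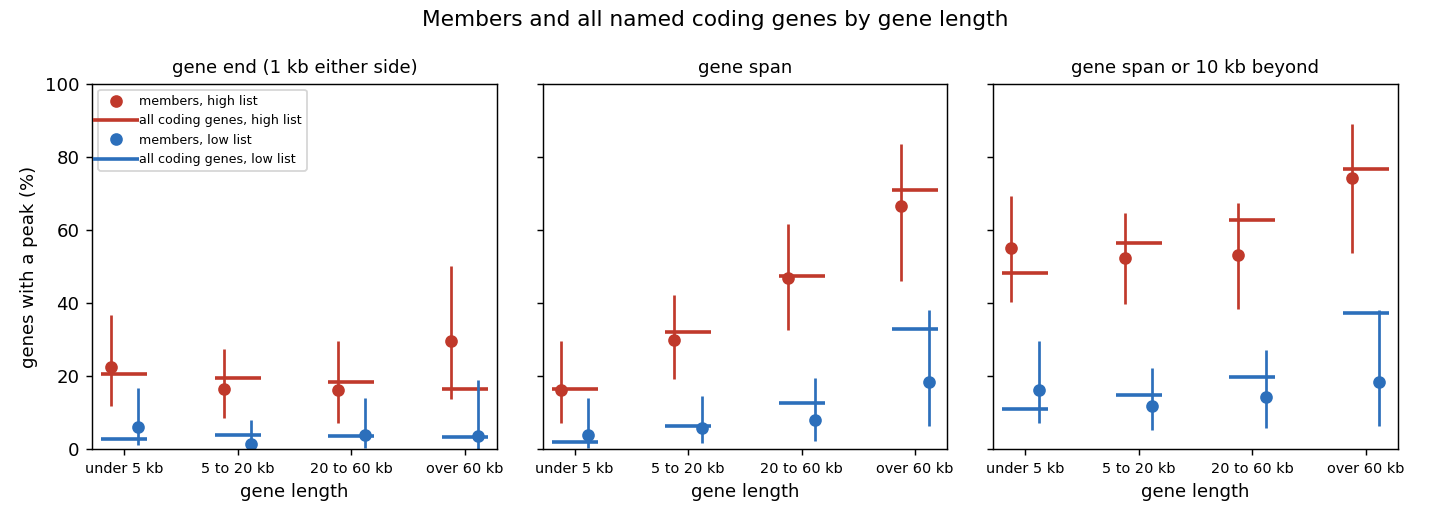
Share of genes with an H4K12la peak (%) by gene length, at gene ends, over the gene span, and over the span with 10 kb added, in the high (red) and low (blue) bile acid list. Points are the immune genes with exact 95% intervals and horizontal dashes are all named coding genes; over the gene span the high-list shares of members run from 16.3% under 5 kb to 66.7% over 60 kb, beside 16.5 to 71.0% of coding genes.

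Peaks within 10 kb of a member numbered 207 in the high and 33 in the low list, each peak counted once. Per Mb of the members' territory this was 17.9 high-list peaks (exact Poisson 95% interval 15.6 to 20.6) and 2.86 low-list peaks (1.97 to 4.02). Around all named coding genes the densities were 15.1 and 3.02 per Mb. The first lies below the members' interval, while fewer members than coding genes had a high-list peak within 10 kb (56.3 against 62.8%). The median length of members is shorter (14.0 against 25.6 kb). The mix of gene span and flank in each territory was not compared, and the difference in density was not tested. The members' territory is 11.5 Mb, of which the X-linked genes IL1RAPL1 and IL1RAPL2 span 1403 and 1117 kb. Neither has a peak of either list within 10 kb, so they lower both densities of the members. On X, 3.61% of coding genes had a high-list peak within 10 kb. The densities without these genes were not computed. In the high list 47 of the 207 peaks (22.7%) lay at a gene end, 93 (44.9%) inside a gene away from its ends and 67 (32.4%) beyond it. The low list had 8 (24.2%), 15 (45.5%) and 10 (30.3%) in the same places. The members' peaks had a median fold of 2.83 in the high and 3.11 in the low list, where the whole lists had 2.90 and 2.98. Of the 47 high-list peaks at gene ends, 12 also lay at the end of another annotated gene, as did 3 of the 8 in the low list. Such peaks cannot be assigned to either gene.

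Split by function, the 39 genes of intracellular signalling (adaptors, NF-kappaB, IRF, JAK, STAT and SOCS) had the highest share of gene-end peaks in the high list, 13 of 39 (33.3%; 19.1 to 50.2%). Receptors had 15 of 80 (18.8%; 10.9 to 29.0%) and ligands 10 of 73 (13.7%; 6.77 to 23.8%). In the low list the order was another: receptors had 6 of 80 (7.50%), ligands 1 of 73 (1.37%) and signalling genes 0 of 39 (exact interval up to 9.03%). The intervals cover counting error only and overlap between the groups. Over all named coding genes the gene-end shares were 18.4% (high) and 3.59% (low), which are also the backgrounds for the role classes below. STAT5A counts among the signalling genes on a peak that it shares with STAT5B. NFKBIA and NFKBIB count only on high-list peaks that also lie at the end of another annotated gene. The same holds for the receptors CXCR5, IL17RC and IL27RA and the ligands IL17C and IL25. The shares of the groups without such genes were not computed. Neither the difference between the groups of genes nor that from all coding genes was tested.

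**Figure D2:**
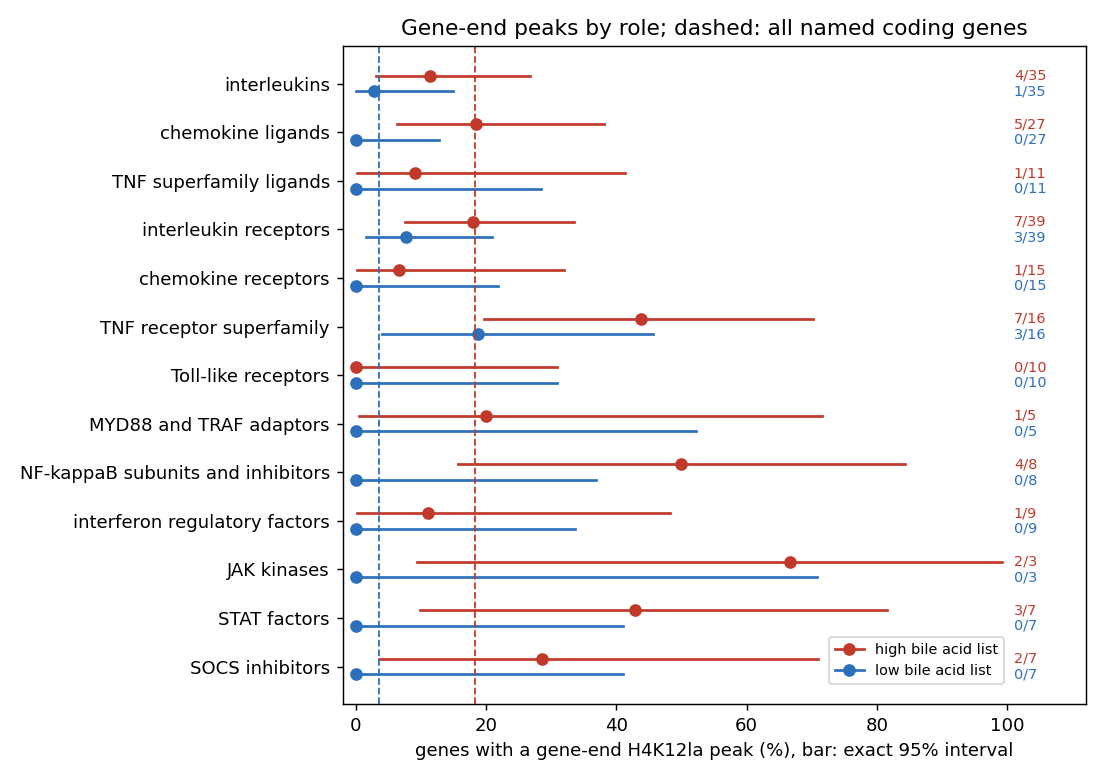
Share of genes with a gene-end H4K12la peak (%) in 13 role classes, high (red) and low (blue) bile acid list, with exact 95% intervals and counts at the right; dashed lines mark all named coding genes at 18.4% and 3.59%. The TNF receptor superfamily, at 7 of 16 in the high and 3 of 16 in the low list, is the class whose interval lies above the dashed line in both lists.

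Among the 35 interleukin genes, 4 (11.4%) had a high-list peak at an end and 1 (2.86%) a low-list peak. IL4, a cytokine of type 2 immunity, had the strongest. Its peak, at chr2:134986943-134987238, begins inside the gene near the end with the lower coordinate, with a fold of 3.65 (q 0.139) from 10 fragments over 2.02 expected. A second high-list peak inside IL4 had a fold of 3.98 (q 0.0735). Another, at chr2:134981105-134981413 in the interval between IL13 and IL4, had a fold of 3.98 (q 0.0399) from 13 fragments (exact Poisson 95% interval 6.92 to 22.2) over 2.52 expected. IL13, which acts with IL4 in type 2 responses and lies next to it, carried no high-list peak at its ends. It had the single low-list gene-end peak of the interleukins, with a fold of 2.78 (q 1) at chr2:134971091-134971532. The high-list and low-list peaks at this pair of genes lie 9573 bp apart at their nearest. The gene table draws KIF3A across both genes, so each of these peaks also lies inside the KIF3A span.

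The other interleukins with a high-list gene-end peak were IL17B, IL17C and IL25, ligands of the interleukin-17 family. IL25 had peaks of fold 2.78 and 3.11 (q 0.381 and 0.242), both also at an end of CMTM5. IL17C had a peak of fold 3.11 (q 0.242) that also lies at an end of CYBA, which encodes a subunit of the phagocyte NADPH oxidase. IL17B had gene-end peaks of fold 2.68 and 2.37. It had 11 high-list peaks within 10 kb in all, more than any other member, and no low-list peak. Their folds ran from 2.34 to 4.28, and the strongest lies 5790 bp beyond the gene (q 0.0247; 13 fragments over 2.27 expected). The gene is annotated over 70.0 kb, a span that also touches PCYOX1L and another coding locus.

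The remaining interleukins had peaks away from their ends or none. IL28B, an interferon lambda gene, had the strongest high-list peak of the ligands, with a fold of 4.70 (q 0.0106; 13 fragments over 1.98 expected) at chr6:47947684-47948041. It lies 3884 bp beyond the gene and at the end of a gene with a provisional name. IL7, a lymphocyte growth factor, held an internal peak of fold 3.80 (q 0.0779). IL33, an alarmin, held the strongest low-list peak of the interleukins, internal and with a fold of 3.34 (q 1). IL18, processed by the inflammasome, held an internal high-list peak of fold 2.68. IL6, the main inducer of hepatic acute phase genes, had 1 high-list peak of fold 2.49 (q 0.503), 8155 bp beyond the gene. IL10, an anti-inflammatory cytokine, had 2 high-list peaks beyond its ends, of fold 2.60 and 2.89. IL1B and CXCL8, classic targets of NF-kappaB, lay more than 10 kb from any peak of either list.

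Of 27 chemokine ligands, 5 (18.5%; 6.30 to 38.1%) had a high-list peak at an end and none had a low-list peak there. CXCL14, a chemokine of epithelia, was the strongest, with peaks of fold 2.88 (q 0.33) and 3.87 (q 0.0735) on either side of 1 gene end and 2 more within 10 kb. CCL16, a chemokine made in liver in humans, had gene-end peaks of fold 3.36 and 3.39 (q 0.232 and 0.167). CCL16 spans 3.37 kb, and its neighbour CCL14 lies within 10 kb of the same 2 peaks. CCL4, which attracts T cells and macrophages, had a peak of fold 3.36 (q 0.232), CCL11 one of 2.60 and CCL26 one of 2.08. CCL11 and CCL26 encode eotaxins, which attract eosinophils. CCL2, which attracts monocytes, had a high-list peak of fold 2.56 lying 4895 bp beyond the gene. In the low list CXCL2 and CCL27 had a peak beyond the gene, and CCL27 had the higher fold (3.21, q 1), on a peak that lies inside the interleukin receptor gene IL11RA. Of 11 TNF superfamily ligands, TNFSF13, which encodes the B cell factor APRIL, had the only gene-end peak (high list, fold 2.84, q 0.33). TNFSF4, the OX40 ligand, had internal peaks in both lists, of up to 3.36 in the high and 2.98 in the low list, in a gene annotated over 322 kb.

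Among receptors, the TNF receptor superfamily had the highest share of members marked at an end, whichever list was read. These were 7 of its 16 genes for the high list (43.8%; 19.8 to 70.1%) and 3 for the low list (18.8%; 4.05 to 45.6%). The lower bounds lie above the backgrounds of 18.4% and 3.59%. This was 1 of 13 role classes read in each list, and the difference from the background was not tested. The high-list genes were TNFRSF9 (fold 3.17), TNFRSF21 (3.02), TNFRSF1B (2.86), TNFRSF18 (2.71 and 2.47), TNFRSF11A (2.60), TNFRSF1A (2.45) and TNFRSF13C (2.34). TNFRSF1A and TNFRSF1B encode the receptors of TNF itself, TNFRSF9 and TNFRSF18 T cell costimulatory receptors, and TNFRSF11A the receptor RANK. Their q values lay between 0.232 and 0.548. The low-list genes were TNFRSF21 (3.56), TNFRSF25 (3.32) and TNFRSF6B (2.45), all with a q of 1. TNFRSF6B encodes a decoy receptor, and its peak also lies at ends of RTEL1 and ARFRP1. TNFRSF25 shares its peak with an end of PLEKHG5. TNFRSF13B, a B cell receptor for APRIL, held the strongest high-list peak of the class, internal at chr12:61266777-61267469 with a fold of 4.43 (q 0.0177; 13 fragments over 2.16 expected).

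TNFRSF21, which encodes death receptor 6, was the only member with overlapping peaks of both lists at a gene end. The high-list peak, at chr7:42020061-42020544, had a fold of 3.02 (q 0.33) from 8 fragments. The low-list peak, at chr7:42020112-42020510, had a fold of 3.56 (q 1) from 11 fragments. Their summits lie 40 bp apart, 67 and 107 bp inside the annotated end with the lower coordinate. The intervals of the fragment numbers, 3.45 to 15.8 and 5.49 to 19.7, overlap over most of their length. The high list held 4 further internal peaks in this gene. The other overlapping pair of peaks near a member lies 4904 bp beyond IL22RA1, with folds of 3.03 (high) and 3.11 (low). Both of those peaks also lie within 10 kb of the interferon lambda receptor gene IFNLR1. Over the whole high list, 28076 of 28283 peaks had no overlapping low-list peak.

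Of 39 interleukin receptor genes, 7 (17.9%; 7.54 to 33.5%) had a high-list peak at an end and 3 (7.69%; 1.62 to 20.9%) a low-list peak. IL6R, the receptor through which hepatocytes answer IL-6, had peaks of both lists at the end with the higher coordinate. The high-list peak, at chr4:95380693-95381053, had a fold of 2.71 (q 0.301) from 12 fragments over 3.80 expected. It lies between 2 low-list peaks of fold 3.41 and 3.52 (q 1), 138 bp from the nearer, with summits 485 bp apart. The high list also held 3 internal peaks in IL6R, of fold 2.29 to 3.36. IL17RC, a receptor chain for IL-17A and IL-17F, had a high-list peak of fold 2.64 and a low-list peak of fold 3.15, separated by 755 bp, both also at an end of CRELD1. IL27RA had peaks of fold 3.17 and 2.53, both also at an end of RLN3, and IL17RB, the receptor of IL-25, had peaks of fold 2.91 and 2.43. IL21R (2.86), IL1RAP (2.78), the shared chain of the IL-1 receptors, and IL17RD (2.09) completed the high list. IL20RA (3.14, q 1) completed the low list, whose highest fold in the class was an internal peak of IL21R (3.74, q 1). IL10RA held the strongest high-list peak of the class, internal, with a fold of 4.04 (q 0.031; 14 fragments over 2.72 expected). IL4R, the receptor for IL-4 and IL-13, had 7 high-list peaks within 10 kb of its 50.5 kb, none at an end, with folds of 2.56 to 3.28.

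With 10 kb added, 5 of 15 chemokine receptors (33.3%; 11.8 to 61.6%) and 3 of 10 Toll-like receptors (30%; 6.67 to 65.2%) had a high-list peak, beside 62.8% of coding genes. These classes have short genes, with median lengths of 6.65 and 11.8 kb. Among coding genes the share was 48.2% under 5 kb and 56.3% from 5 to 20 kb, inside both intervals. Of the 15 chemokine receptors, CXCR5, which guides B cells, had the only gene-end peak (high list, fold 2.62, q 0.471), also at an end of BCL9L. CCR10 had a high-list peak of fold 4.63 (q 0.0081; 14 fragments over 2.24 expected) at chr12:20164891-20165539. That peak lies 5373 bp from CCR10 and inside PLEKHH3. CCR3, an eotaxin receptor, had the only low-list peak of the class (2.42, q 1), 4048 bp beyond it. None of 10 Toll-like receptors was marked at an end in either list, and a count of 0 of 10 leaves an exact interval of up to 30.8%. TLR9 held an internal high-list peak of fold 2.34, and TLR2 one of 2.53 lying 6709 bp beyond it. TLR5, which senses flagellin, had a peak of fold 2.14 (q 0.0303) lying 4814 bp beyond it, from 52 fragments over 23.8 expected. The expected number there is far above the median of 2.30 for high-list peaks near members, and its part in the call was not tested. TLR4, the receptor of lipopolysaccharide, lay more than 10 kb from any peak of either list.

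Chromosome X holds 8 members, among them TLR7, TLR8 and CXCR3. None was marked at an end, and 1 (IL2RG, the shared chain of several interleukin receptors) had a high-list peak within 10 kb. Of all coding genes on X, 0.821% had a high-list gene-end peak. On the autosomes alone, 38 of 184 members (20.7%) had one, against 19.1% of coding genes.

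**Figure D3:**
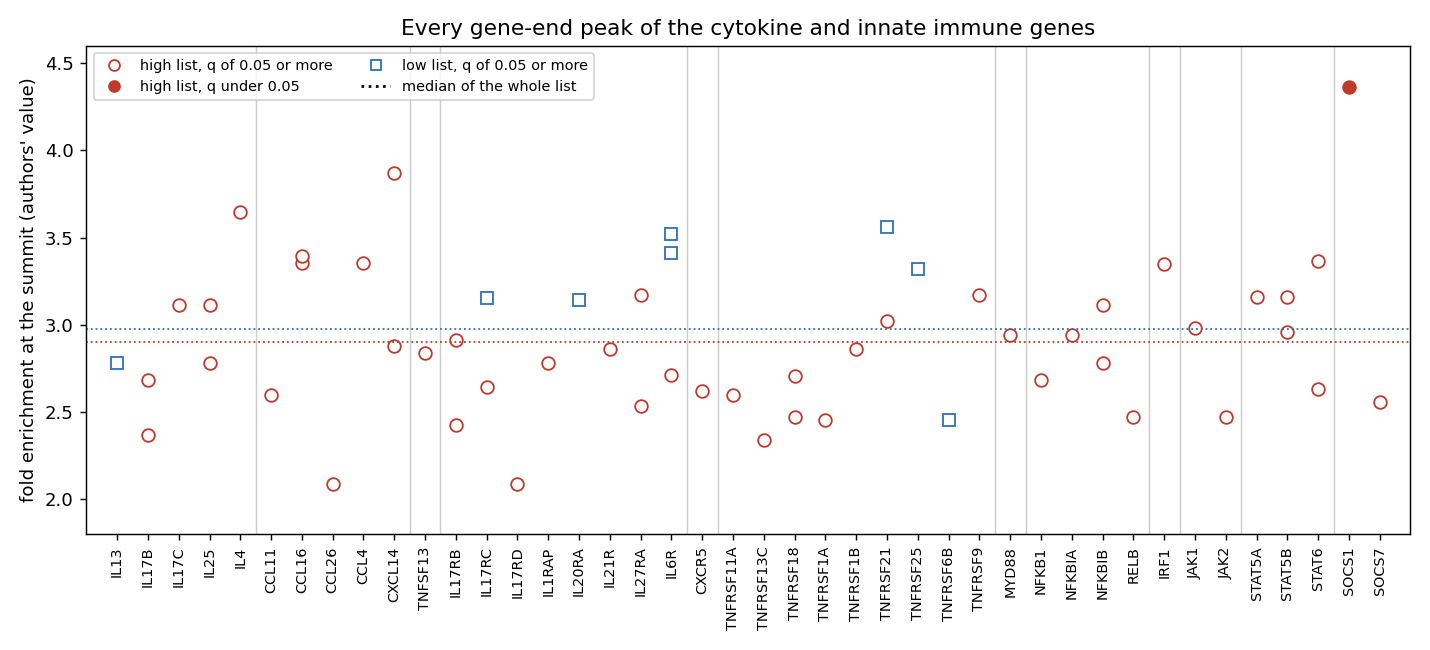
Fold enrichment at the summit (authors' value) of every gene-end peak of the immune genes, grouped by role class from ligands at the left to SOCS inhibitors at the right; circles are high-list and squares low-list peaks, filled where q is under 0.05, and dotted lines are the medians of the whole lists. The high-list folds run from 2.08 to 4.36 and the low-list folds from 2.45 to 3.56; SOCS1 is the only filled point.

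Downstream of the receptors, 4 of 8 NF-kappaB subunit and inhibitor genes had a high-list gene-end peak (50%; 15.7 to 84.3%), beside 18.4% of coding genes. None had one in the low list (exact interval up to 36.9%), beside 3.59% of coding genes. Both shares of coding genes lie inside the intervals. NFKBIB had 2 peaks, of fold 2.78 and 3.11 (q 0.381 and 0.242), both also at an end of CCER2. NFKBIA, which encodes the inhibitor IkappaB alpha, had a peak of fold 2.94 (q 0.232) that also lies at the end of a locus with a provisional name. NFKB1, the p105 and p50 subunit, had one of 2.68 and RELB, of the non-canonical pathway, one of 2.47. RELA, which encodes p65, had only a high-list peak of fold 2.68 lying 6639 bp beyond it, and NFKB2 had an internal one of 3.22. NFKBIE, another inhibitor, had the highest fold of the class, 3.39 (q 0.167), on a peak 1235 bp beyond it at an end of SLC35B2. MYD88, the adaptor of most Toll-like receptors, had a peak of fold 2.94 (q 0.232) at chr13:22977238-22977534 from 11 fragments over 3.08 expected, within the span of ACAA1. The TRAF genes had no gene-end peak. TRAF4 had a high-list peak of fold 3.77 (q 0.0845) lying 2542 bp beyond it, and TRAF5 a low-list peak of 3.74 (q 1) lying 9552 bp beyond it.

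Of 9 interferon regulatory factors, IRF1 had the only gene-end peak, in the high list, with a fold of 3.35 (q 0.139) from 12 fragments, within the span of SLC22A5. IRF2 held an internal high-list peak of fold 3.69 and 3 internal low-list peaks of up to 3.27, which lay 21240 bp or more from it. IRF8, of myeloid cells, held a single low-list peak of fold 3.53 (q 1), internal, and IRF3, a factor of interferon induction, a low-list peak of 3.54 (q 1) lying 5803 bp beyond it.

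High-list gene-end peaks lay at 2 of 3 JAK, 3 of 7 STAT and 2 of 7 SOCS genes, beside 18.4% of coding genes. No low-list gene-end peak lay at any of them, beside 3.59% of coding genes. In each class the exact intervals hold these shares. SOCS1, an inhibitor of JAK kinases induced by interferon, was the only member whose gene-end peak had a q under 0.05. It lies at chr3:31881792-31882423, inside the 3.90 kb gene and 803 bp from an end, with a fold of 4.36 (q 0.031). It rests on 12 fragments (6.20 to 21.0) over 1.98 expected. The low list held no peak within 10 kb of SOCS1, so the low library has no value there. SOCS7 had a gene-end peak of fold 2.56, and SOCS2, SOCS5 and SOCS6 had internal high-list peaks. SOCS3, the feedback inhibitor of IL-6 signalling, had a low-list peak of fold 2.94 lying 7557 bp beyond it and no high-list peak.

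STAT6, the factor that answers IL-4 and IL-13, had the strongest high-list peak of the STAT genes. It also had their only low-list peak within 10 kb, at a different place. The high list held a gene-end peak of fold 2.63 (q 0.402) shared with an end of NAB2, an internal peak of 2.60, an internal peak of 4.25 at chr5:22420933-22421332 (q 0.0272; 13 fragments over 2.30 expected) and a gene-end peak of 3.37 (q 0.168). The low list held 1 peak, of fold 5.02 (q 0.00471), at chr5:22398779-22399268. It lies 7088 bp beyond STAT6, on the far side of NAB2, and 6319 bp from the nearest high-list peak. It rests on 16 fragments (9.15 to 25.98) over 2.27 expected. It is 1 of the 13 low-list peaks with q under 0.05, and the other 32 low-list peaks near members all had a q of 1. STAT5A and STAT5B, neighbours whose annotated spans overlap, shared a high-list peak of fold 3.16 (q 0.214) where they meet, and STAT5B had another of 2.96 at its other end. STAT3, which carries the IL-6 signal, had a single high-list peak of 2.63 lying 1880 bp beyond it. JAK1 and JAK2 had high-list gene-end peaks of fold 2.98 and 2.47, and JAK1 an internal low-list peak of 3.74 (q 1).

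**Figure D4:**
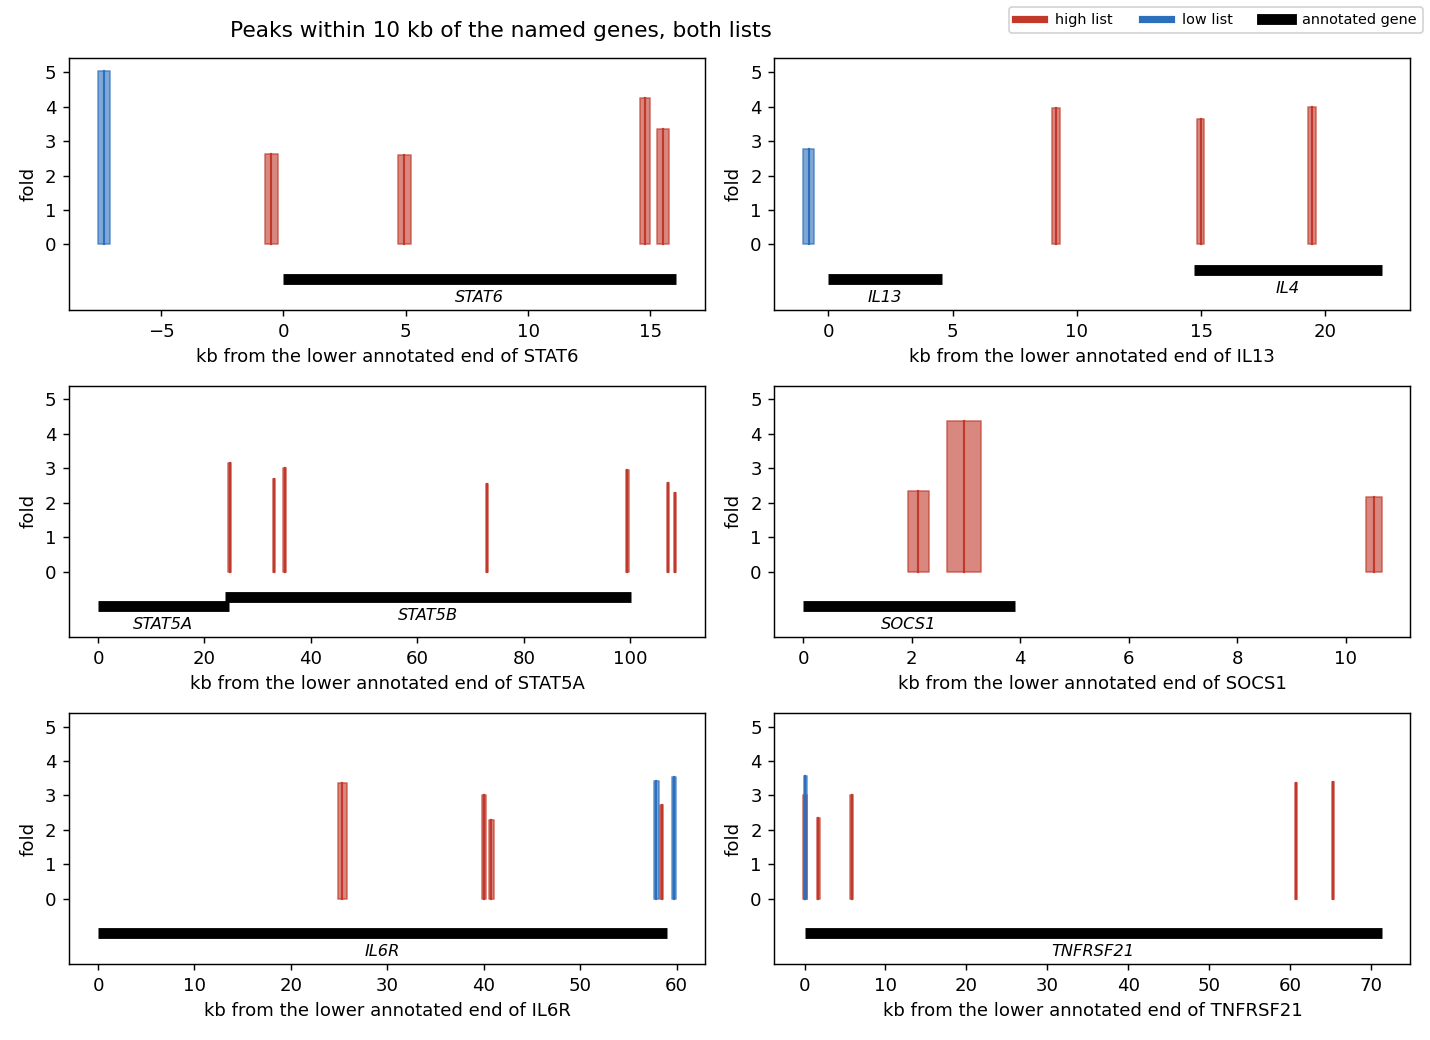
Peaks within 10 kb of STAT6, IL13 and IL4, STAT5A and STAT5B, SOCS1, IL6R and TNFRSF21 in the high (red) and low (blue) list; bar height is the fold, black bars are the annotated genes, and distance is in kb from the lower annotated end of the first gene. The peaks of the lists overlap at TNFRSF21 (folds of 3.02 and 3.56) and do not overlap at STAT6, IL13 and IL4, and IL6R.

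Presence in a single list is a matter of thresholds. Each such peak was therefore set beside the smallest fragment number that would have passed in the other library over the same expected number. The cutoff was taken as the smallest −log10 p-value of either list (2.0048). The other library's own local background at these places was not used. Lack of an overlap was the rule over the whole lists, at 28076 of 28283 high-list and 5527 of 5735 low-list peaks. Of the 205 high-list peaks near members without an overlapping low-list peak, 4 had an interval wholly at or above the number needed (1.95%; 1.03% of all such peaks in the list). They were the peaks near CCR10 (14 fragments against 7), IL28B (13 against 6), SOCS1 (12 against 6) and TLR5 (52 against 37). Of the 31 such low-list peaks, 1 did (3.23%; 3.60% of all), that beyond STAT6 (16 against 6). These peaks were picked because they passed in 1 library, and their numbers are the maxima at the summits, so the intervals are drawn around selected values and do not test a difference. For the remaining peaks, including those at IL4, MYD88, NFKB1 and IRF1, the interval reached below the number needed. Their absence from the other list was not resolvable at this depth. In all, 9 high-list peaks with q under 0.05 lay within 10 kb of 10 members, 4.35% of the members' peaks (2.01 to 8.09%) and 2.34% of the peaks around all coding genes. At gene ends it was 1 of 47 member peaks (2.13%), beside 4.04% of the gene-end peaks of all coding genes.

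**Figure D5:**
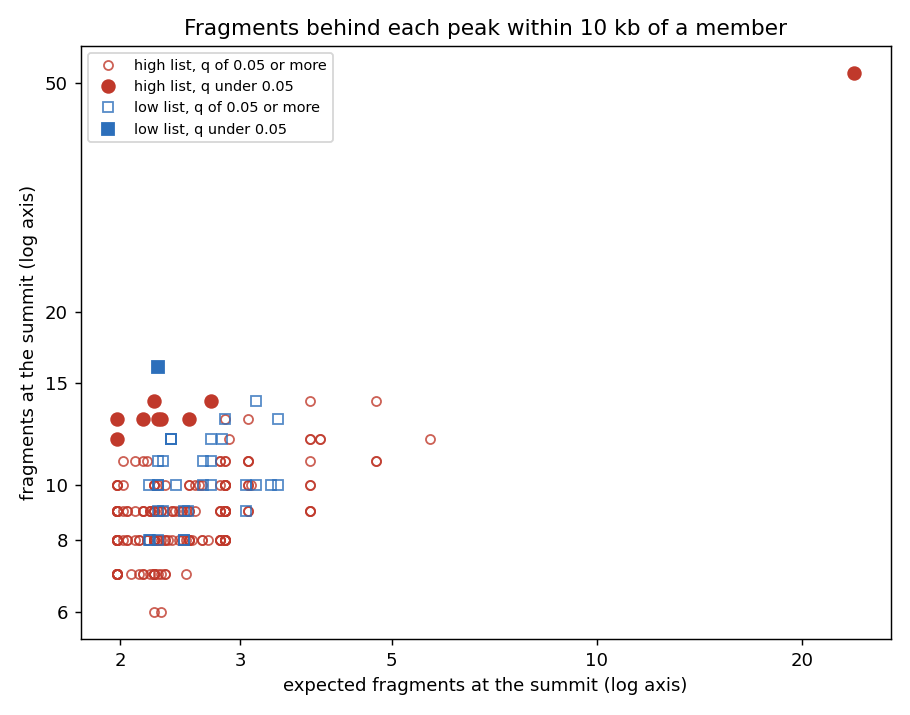
Fragments at the summit against the expected number (both log axes) for every peak within 10 kb of an immune gene; circles are the high and squares the low list, filled where q is under 0.05. Most points sit between 7 and 14 fragments over 2 to 3 expected; the low-list peak near STAT6, at 16, and the TLR5 peak, at 52 over 23.8, stand apart.

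Genes of the same pathways whose symbols fall outside the rule were counted in the same way. Of 31 Toll-like receptor and NF-kappaB signalling genes, 8 had a high-list gene-end peak (25.8%; 11.9 to 44.6%) and 2 a low-list one (6.45%). CYLD, a deubiquitinase that restrains NF-kappaB, had a fold of 3.69 (q 0.0743), TICAM1, the adaptor of TLR3, 3.58 and BIRC3 3.36. TNFAIP3, which encodes the NF-kappaB inhibitor A20, had a low-list peak of 3.64 (q 1), and CHUK had peaks in both lists at opposite ends. Of 30 other cytokine, receptor and JAK-STAT genes, 5 had a high-list peak at an end (16.7%) and 2 a low-list one (6.67%). CSF3, the granulocyte factor, had a fold of 3.85 (q 0.0735), and the chemokine receptor gene XCR1 a low-list peak of 4.15 (q 0.598). Of 28 interferon and nucleic acid sensing genes, 4 had a high-list peak at an end (14.3%; 4.03 to 32.7%), led by ISG15, an interferon-induced ubiquitin-like protein (3.36), and IFNGR2, an interferon gamma receptor chain (3.02), and none a low-list one. With 10 kb added, high-list peaks lay at 22 of the 31 (71.0%; 52.0 to 85.8%), 15 of the 30 (50%; 31.3 to 68.7%) and 23 of the 28 (82.1%; 63.1 to 93.9%) genes of these lists, beside 62.8% of coding genes. They are 3 of 5 further lists read. The gene-end shares of these 3 lists have intervals that hold the backgrounds of 18.4% and 3.59%.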

How the data were processed

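The submitters' processing notes list MACS2 2.1.0, Bowtie 1.1.2, Trimmomatic 0.33 and bcl2fastq 2.17, and both hg38 and Sscrofa11.1 as builds. Coordinates were read as pig. The authors deposited 1 peak list per immunoprecipitated library, called without pooling. In the deposited lists the fold is a ratio at the summit over local background, beside −log10 p-value and −log10 q-value; the deposited score was left aside. No source used here states the cutoff of the peak caller.

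The gene table was RefSeq's for Sscrofa11.1. It has no strand and no exons, so start sites, exons and untranslated regions were not told apart and no sequence is shown. A peak counted for a gene if it overlapped the window by 1 bp. The number of fragments at each summit was solved from fold and p-value; it was whole for 99.98% of peaks in either list within 0.002 in log10 p-value, with the low library's pileup scaled by 0.881. Expected numbers are given in unscaled fragments. Shares carry exact Clopper-Pearson and counts exact Poisson 95% intervals (counting error only, as reads had no molecular identifiers). The counting was tested on simulated data with Python 3.11.15 and scipy 1.17.1. The rule for naming genes took all members with a gene-end peak, overlapping peaks or a q under 0.05, the highest fold of each role class, 17 genes taken whatever their values, and up to 3 per further list. Some genes that meet this rule are not reported here. Others, such as IL7, IL4R, TNFSF4 and the X-linked genes, were named after their values were seen. The members and lists were chosen with earlier results of these data known.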

Additional observations from a re-analysis of the deposited data

How the results depend on the processing

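No paired analysis was possible because there is a single immunoprecipitated library per group. The values are the members marked at a gene end by the high and by the low list, then those in both, high only and low only (38, 7, 3, 35 and 4), then those with a peak within 10 kb in the high and low list (108 and 28). At q under 0.05 they were 1, 0, 0, 1, 0, 10 and 1. At a fold of 3 or more they were 15, 5, 1, 14, 4, 61 and 16, and at a fold of 4 or more 1, 0, 0, 1, 0, 7 and 1. With the high list at the length of the low list they were 8, 7, 0, 8, 7, 26 and 28. With a window of 500 bp the first 5 values were 24, 2, 1, 23 and 1, and with 3 kb they were 62, 12, 5, 57 and 7. These settings keep fewer peaks or use another window. At gene ends the members' share against that of coding genes was 12.5 and 13.0% (high) and 1.04 and 2.32% (low) at 500 bp. At 3 kb it was 32.3 and 31.3% (high) and 6.25 and 6.67% (low). In the high list it was 0.521 and 0.816% at q under 0.05, and 0.521 and 0.994% at a fold of 4. At a fold of 3 it was 7.81 and 9.25% (high) and 2.60 and 1.78% (low). Within 10 kb at q under 0.05 it was 5.21 and 3.60% (high) and 0.521 and 0.0613% (low). Within 10 kb at a fold of 3 it was 31.8 and 40.4% (high) and 8.33 and 11.7% (low). Within 10 kb at a fold of 4 it was 3.65 and 4.65% (high) and 0.521 and 0.337% (low). Taking summits within 500 bp as coinciding added IL6R to the 2 members with overlapping peaks. Counting by summit, or by the larger part of the peak, kept every count within 1.5 times. With 90% intervals, 10 high-list and 4 low-list peaks in place of 4 and 1 reached the other library's limit. Chosen after the data were seen, autosomes only and leaving out chromosome 12 kept the counts at 38 and 31 (high) and at 7 (low). Leaving out peaks at another gene's end gave 30 and 4. The planned count at start sites alone was not run, since the gene table has no strand.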

Other observations

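Acute phase genes, which hepatocytes switch on in answer to IL-6 and STAT3, had no peak of either list at a gene end (0 of 21 found, exact interval up to 16.1%; background 18.4% in the high list). With 10 kb added, 8 (38.1%) had a high-list peak and 3 (14.3%) a low-list peak, beside 62.8% and 22% of coding genes. HP, which encodes haptoglobin, had a high-list peak of fold 4.12 (q 0.0399) beyond the gene and an internal peak in each list, of 2.88 and 2.98. LBP, the lipopolysaccharide binding protein, held an internal high-list peak of 4.03 (q 0.0735), and HAMP, which encodes hepcidin, had one of 3.58 beyond the gene. Of 11 inflammasome and NOD genes, 2 had a high-list gene-end peak (18.2%; 2.28 to 51.8%), close to the 18.4% of coding genes. They were NLRC5 (3.02), a regulator of MHC class I genes, and GSDMD (3.06), the pore-forming effector of pyroptosis. None of the 11 had a low-list one (exact interval up to 28.5%), beside 3.59% of coding genes.

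The interleukin-17 family was grouped after its values were seen, so its count is a description with no test. Of its 12 genes, 6 had a high-list gene-end peak (50%), where 18.4% of all coding genes did. In the low list 1 had one (8.33%), beside 3.59% of coding genes. The 6 were the ligands IL17B, IL17C and IL25 and the receptors IL17RB, IL17RC and IL17RD. The high-list gene-end peaks of IL17C, IL25 and IL17RC also lie at the end of another gene and cannot be assigned to either. With 10 kb added, 10 had a high-list peak (83.3%), beside 62.8% of coding genes, and IL17A and IL17F had none. Counted for each gene, their peaks numbered 29, of which 11 belong to IL17B. A peak near both IL17RC and IL17RE is counted for each of them.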
